A study of Mus musculus with 6 samples.

Results

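The nuclear genes that encode the subunits of the oxidative phosphorylation machinery were examined in whole mouse brain, in wild-type animals (WT) and in animals that lack TRMT1L (KO). Members were the protein-coding genes of GENCODE M21 whose symbol begins with Ndufa, Ndufb, Ndufc, Ndufs, Ndufv, Uqcr, Cox4i, Cox5, Cox6, Cox7, Cox8 or Atp5, with Sdha, Sdhb, Sdhc, Sdhd and Cyc1 added and the Ndufaf assembly factors left out. The rule found 87 annotated genes under 86 symbols, out of 55450 genes in the tables and 21951 protein-coding ones. By complex, 36 belong to complex I, 4 to complex II, 9 to complex III, 20 to complex IV and 18 to complex V. Ndufa4 and Ndufa4l2 were placed with complex IV, where their products are now assigned, despite their names. The rule used symbols only and no measured value.

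The mitochondrial respiratory chain passes electrons from NADH (complex I) or succinate (complex II) through complex III to complex IV, which reduces oxygen, and complexes I, III and IV pump protons across the inner membrane. Complex V, the ATP synthase, lets these protons flow back and makes ATP, on which neurons depend heavily for ion pumping and synaptic transmission. Complex II is encoded in the nucleus alone, whereas the other complexes also hold a few subunits encoded in mitochondrial DNA. Several complex IV subunits have paired genes, one used in most tissues including brain, and another known for heart and skeletal muscle, lung, testis or hypoxic cells.

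The study compared 2 genotypes, with 3 libraries each that the series describes as biological triplicates, made from total RNA of total brain after removal of molecules under 200 bp. TRMT1L is a relative of the tRNA methyltransferase TRMT1, and the comparison asks how its loss changes brain RNA. The labels give the genotype as TRMT1L KO or WT and do not give the allele, strain, age, sex, litter or batch. Since nothing says which libraries came from which animals, p-values measure the spread between these libraries. In bulk brain RNA, fewer cells of a type and less RNA per cell cannot be told apart.

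Libraries held 78341827 to 89979690 reads, of which 31201119 to 36145961 were counted in a gene on its transcribed strand. Trmt1l, the targeted gene, was counted 1279, 1034 and 1158 times in WT and 93, 101 and 106 times in KO, so every library lay on the side its label names. Reads in no gene made up 50.3% to 52.2% of mapped reads in WT and 48.6% to 49.8% in KO, and these ranges did not overlap. Values per library are given in the order of replicates 1 to 3. Levels are CPM (counts scaled to library size with TMM factors), and CPM per kb where genes are compared with each other, dividing by the length of the principal transcript. Differences are log2 fold changes of KO over WT from edgeR's quasi-likelihood fit over 21237 genes, with Benjamini-Hochberg adjustment over all of them.

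None of the 84 members that had enough counts to be tested had an adjusted p under 0.05, while 2 of all genes tested did (0.00942%). The lowest adjusted p among the members was 0.576, shared by Cyc1, Ndufv1 and Ndufb7. The members not tested were Cox8b, Cox8c and the second gene annotated as Atp5o (ENSMUSG00000116933.1), which had 0 counts in every library. That gene's transcript, Atp5o-207, overlaps other genes on the same strand over 100% of its length. Reads there are not counted, so its 0 was not read as a level. Of the 84, 59 had a log2 fold change above 0, beside 50.1% of all genes tested and 55.5% of the protein-coding ones. At an unadjusted p under 0.05, 10 members were higher in KO, beside 4.54% of all genes and 5.92% of the protein-coding ones, and 1 was lower, beside 3.38% and 2.89%. The median log2 fold change was 0.06 over the members and 0.00 over all genes (0.01 over protein-coding genes). DESeq2 and limma-voom also called 0 members. In counts simulated from these libraries for the 21237 genes, the test found 12.5% of genes whose true log2 change was 0.25. It found 48% of those at 0.5. The changed genes were drawn at random from all genes tested, so these shares do not describe the members.

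**Figure D1:**
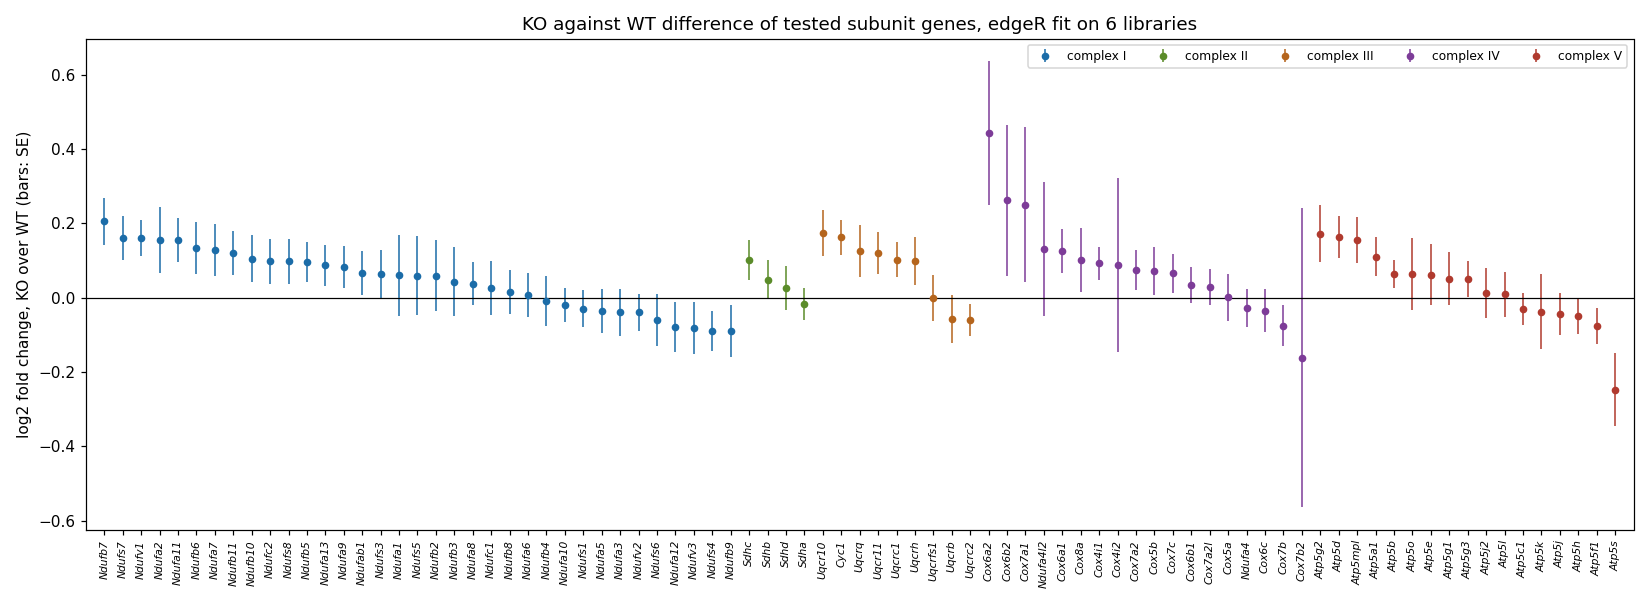
Log2 fold change of KO over WT for the tested members except 1 that is not drawn, by complex and sorted within it; points are the edgeR estimates and bars the standard error. Of all 84 tested members, 59 are above 0 and 25 below, and the widest bars belong to complex IV isoform genes with few counts.

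The members together took 0.556% ± 0.0148 of the counts in genes in WT and 0.570% ± 0.0163 in KO libraries (SD over 3). Their summed level was 5656, 5377 and 5619 CPM in the WT libraries and 5836, 5617 and 5732 CPM in the KO libraries. KO library 2 lay inside the WT range, so the groups overlapped, and WT library 2 was the lowest of all. Levels per kb lay between 8.32 and 120 CPM per kb in complexes I, II and III, while complexes IV and V held both the most and the least abundant members.

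**Figure D2:**
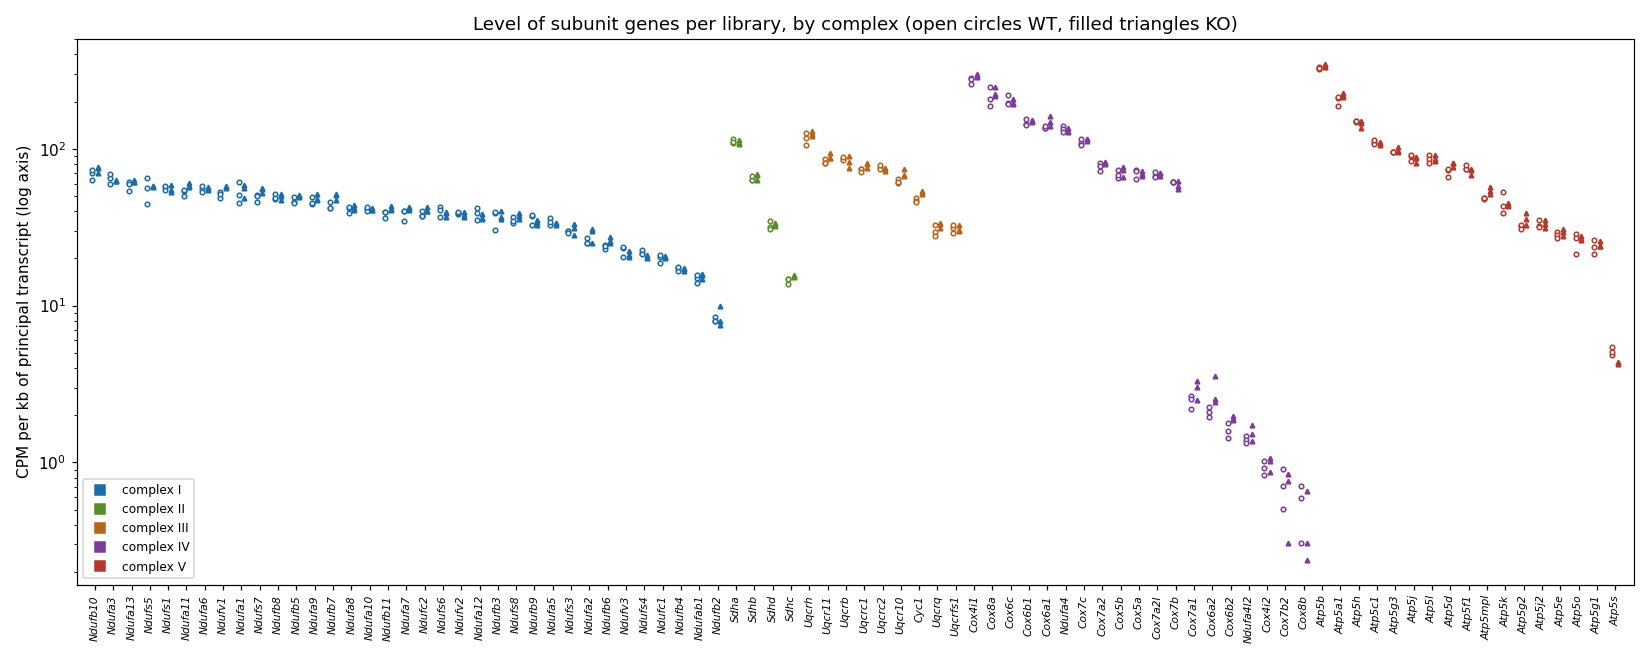
Level of the members with counts in the 6 libraries, except 1 that is not drawn, in CPM per kb of principal transcript on a log axis, by complex and sorted by mean level; open circles are WT libraries and filled triangles KO libraries. Atp5b and Cox4i1 stand at the top, and 7 complex IV isoform genes form a separate group below 4 CPM per kb.

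Complex I, the NADH dehydrogenase, has the most members. Ndufb10, an accessory subunit of its membrane arm, was the highest per kb by principal transcript length, at 71.4 CPM per kb over the 6 libraries. With the length of all exons in place of the principal transcript, Ndufa13 ranked first. Ndufb2 was the lowest at 8.32 CPM per kb. This value divides by a median principal transcript length of 2413 bases, while its transcript Ndufb2-202 has 455, so the rank depends on the transcript taken. Of Ndufb2-202, 31.9% overlaps another gene on the same strand, where reads are not counted. Ndufs4, whose product is needed for a stable NADH-binding module, had 21.2 CPM per kb, and Ndufab1, the mitochondrial acyl carrier protein, 15.2.

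Complex I also held 2 of the 3 members with an unadjusted p under 0.01, a threshold that 1.72% of all genes passed. Ndufv1 (ENSMUSG00000037916.14, chromosome 19 from 4007384 to 4012806 on GRCm38, minus strand), the core subunit that binds NADH, had 88.0, 81.2 and 85.3 CPM in the WT libraries and 96.1, 93.1 and 95.1 CPM in the KO libraries. All KO values lay above all WT values, and the log2 fold change was 0.16 (SE 0.0479; adjusted p = 0.576 by edgeR). Ndufb7 (ENSMUSG00000033938.5, chromosome 8 from 83566671 to 83571626, plus strand), a membrane-arm subunit on the intermembrane-space side, had 28.4, 26.3 and 26.0 CPM in WT and 31.6, 29.3 and 32.1 CPM in KO. These groups did not overlap either, and the log2 fold change was 0.21 (SE 0.0636; adjusted p = 0.576 by edgeR), the highest of the complex. Ndufb9, another membrane-arm subunit, had the lowest value of the complex, -0.09 (SE 0.0708; adjusted p = 0.782 by edgeR), with 26.4, 26.7 and 23.2 CPM in WT and 23.9, 23.0 and 24.8 CPM in KO. Its libraries overlapped between the groups, and 28.6% of its 704-base transcript Ndufb9-201 overlaps another gene on the same strand.

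Within complex I, 25 of 36 members had a value above 0 and the median was 0.06. Among the 7 core subunits, which include the carriers of the flavin and of iron-sulfur centres, 5 were above 0. Of the core subunits 2, Ndufv1 and Ndufs7 (0.16), had an unadjusted p under 0.05, as did Ndufa11 (0.15) among the 13 accessory members named Ndufa. The 12 accessory members named Ndufb or Ndufc, mostly of the membrane arm, had 10 values above 0 and a median of 0.08. The 4 accessory members named Ndufs or Ndufv (Ndufs4, Ndufs5, Ndufs6 and Ndufv3) had 1 value above 0 and a median of -0.07. Ndufs4 was the sole member of complex I whose KO libraries all lay below the WT libraries, at 34.2, 34.6 and 35.9 CPM against 37.0, 38.3 and 36.2 CPM (log2 fold change -0.09, SE 0.0539; adjusted p = 0.708 by edgeR). Over all members, 20 had every KO library above every WT library, beside 7.46% of all genes, and 2, Ndufs4 and Atp5s, had every KO library below, beside 6.97%.

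Complex II, succinate dehydrogenase, links the citric acid cycle to the chain. Its flavoprotein Sdha was the highest at 111 CPM per kb, then the iron-sulfur subunit Sdhb at 65.4 and the membrane anchors Sdhd at 32.8 and Sdhc at 14.9. With all exons counted Sdha was at 77.9, Sdhb at 33.3, Sdhd at 32.8 and Sdhc at 14.6 CPM per kb. Sdha had 334, 315 and 322 CPM in the WT libraries and 332, 314 and 313 CPM in the KO libraries, which gave a log2 fold change of -0.02 (SE 0.0431; adjusted p = 0.942 by edgeR). KO library 1 lay within the WT range, and KO libraries 2 and 3 lay just below it. Sdhc had 46.6, 43.4 and 47.2 CPM in WT and 49.0, 48.0 and 50.1 CPM in KO, with no overlap and the highest value of the complex, 0.10 (SE 0.0538; adjusted p = 0.671 by edgeR). None of the 4 members had an unadjusted p under 0.05, and Sdhc was at 0.06 without WT library 2.

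Complex III, the cytochrome bc1 complex, had the highest median difference of the complexes, 0.10 over 9 members, of which 6 were above 0. With offsets for GC content it was 0.06, beside 0.05 for complexes I and V, and 0 of its members had an unadjusted p under 0.05, against 2. Uqcrh, the hinge protein that helps cytochrome c1 meet cytochrome c, was its most abundant member at 120 CPM per kb, and with all exons counted Uqcr11 ranked first. Uqcrfs1, the Rieske iron-sulfur protein, and Uqcrq were the lowest at 31.0 and 31.3, and with all exons counted Uqcrq alone was, at 16.5. Cyc1 (ENSMUSG00000022551.8, chromosome 15 from 76343523 to 76346260, plus strand), cytochrome c1 itself, had the smallest unadjusted p of all members. Its levels were 73.4, 70.9 and 70.0 CPM in the WT libraries and 80.0, 78.4 and 81.6 CPM in the KO libraries. The lowest KO library was above the highest WT library, and the log2 fold change was 0.16 (SE 0.0467; adjusted p = 0.576 by edgeR). Uqcr10, a small subunit beside cytochrome c1, had 27.9, 26.3 and 26.7 CPM in WT and 32.5, 29.3 and 29.6 CPM in KO, without overlap, and the highest value of the complex at 0.17 (SE 0.0626; adjusted p = 0.579 by edgeR). Uqcrc2, one of the core proteins, had the lowest at -0.06 (SE 0.0433; adjusted p = 0.759 by edgeR), while the other core protein, Uqcrc1, was at 0.10, so the pair lay on opposite sides of 0.

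Complex IV, cytochrome c oxidase, held the widest range of levels because its isoform genes differ so much. Cox4i1, the isoform of subunit 4 found in most tissues, had 284 CPM per kb, the second highest level of all members, followed by Cox8a at 222 and Cox6c at 202. Among the main isoforms and the subunits with a single gene, Cox7b was the lowest at 60.0 CPM per kb of principal transcript. The ranks depend on the length used: with all exons counted Cox8a was first at 197 CPM per kb, Cox6c stood at 34.3 and Cox5a was the lowest of these genes at 21.4. Cox7a2l, a relative of Cox7a2 whose product takes part in joining complexes III and IV, had 68.5.

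The isoform genes known from other tissues stood far below their partners in every library. Cox4i2, the isoform described in lung and under low oxygen, had 0.742, 0.670 and 0.608 CPM in the WT libraries and 0.633, 0.743 and 0.775 CPM in the KO libraries, against 197 to 225 CPM for Cox4i1. Cox4i1 was 298-fold higher per kb over the 6 libraries. The heart and skeletal muscle isoforms Cox6a2 and Cox7a1 were 57.9-fold and 29.3-fold below Cox6a1 and Cox7a2. The testis isoforms Cox6b2 and Cox7b2 were 84.3-fold and 88.9-fold below Cox6b1 and Cox7b, and Ndufa4l2, induced by hypoxia, was 78.9-fold to 96.1-fold below Ndufa4 in single libraries. Cox8b, the muscle and brown fat isoform, had 34 counts in the 6 libraries together and was 473-fold below Cox8a. Cox8c, known from testis, had 0 of the 25126 counts of the Cox8 genes, which allows a share of up to 0.0929% in the library with the fewest. These folds are per kb of principal transcript and depend on that length. With all exons counted they were 157-fold for Cox4i2, 148-fold for Cox6b2, 40.6-fold for Ndufa4l2, 47.1-fold for Cox6a2, 27.8-fold for Cox7a1, 73.3-fold for Cox7b2 and 421-fold for Cox8b.

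**Figure D3:**
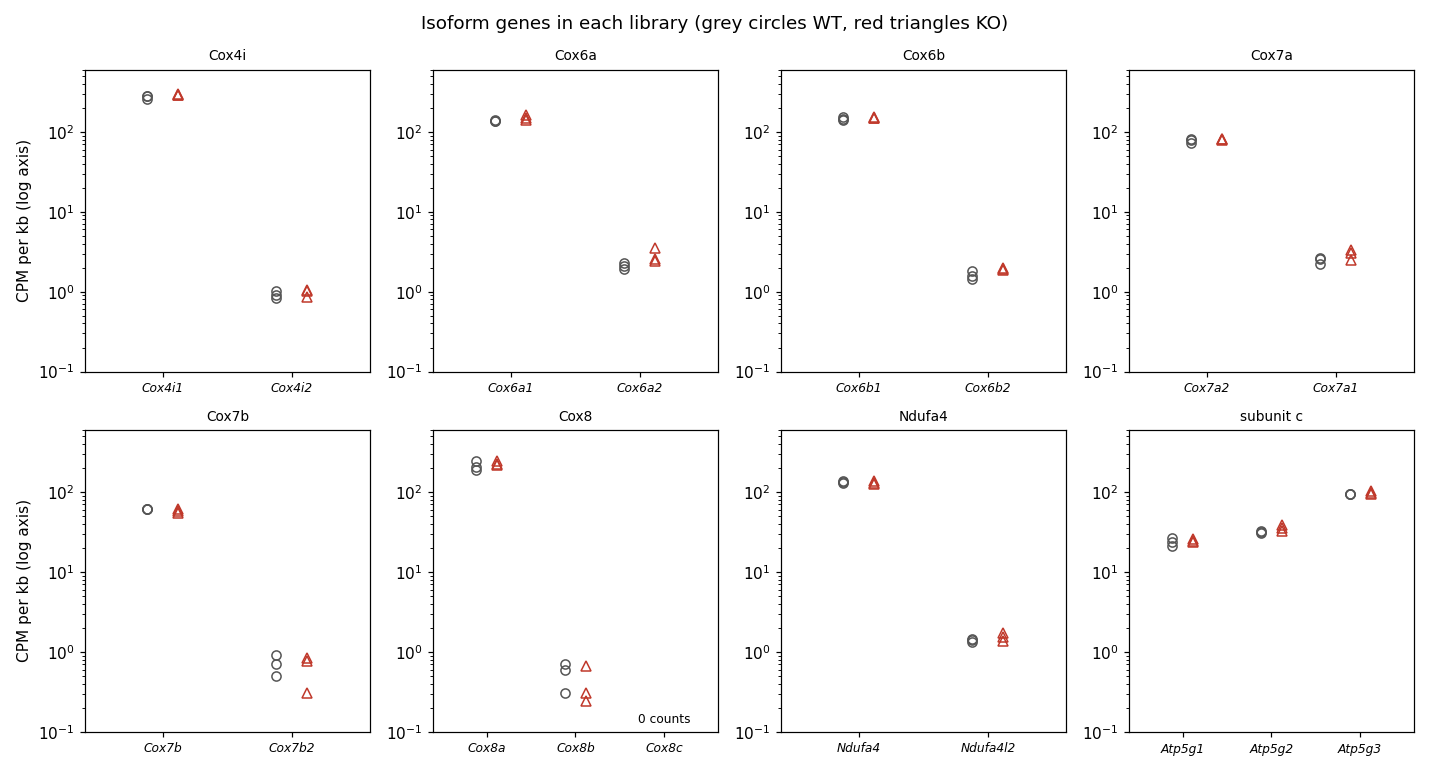
Level of each gene of the isoform groups in the 6 libraries, in CPM per kb of principal transcript on a log axis; grey circles are WT libraries and red triangles KO libraries. In the 7 complex IV groups the isoform of most tissues lies at least 20-fold above the other, while the subunit c genes of complex V lie within a 5-fold range.

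Marker genes of tissues that use these isoforms were measured in the same libraries. Of 9 striated muscle markers, 7 had a mean below 1 CPM, and their summed level was 8.42 to 13.7 CPM in WT and 7.90 to 10.9 CPM in KO. Of 6 testis germ cell markers, 4 had 0 counts, and the sum reached at most 0.0638 CPM. Markers of mural cells of blood vessels, by contrast, summed to 275 to 301 CPM in WT and 278 to 297 CPM in KO. The part of any of these cells in the isoform counts was not tested.

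Isoform use was compared between genotypes as the share of each gene in the counts of its group, with 11 shares tested by a two-sided exact permutation test, whose smallest p with 3 against 3 libraries is 0.1. Cox6a2 made up 1.67%, 1.94% and 1.76% of Cox6a counts in the WT libraries and 2.01%, 2.06% and 2.54% of them in the KO libraries. The groups did not overlap (means 1.79% ± 0.139 and 2.20% ± 0.293, SD, n = 3; exact permutation p = 0.1, adjusted p = 0.367), and KO library 3 stood above the rest. Cox6a2 (ENSMUSG00000030785.8) lies on chromosome 7 from 128205435 to 128206387 on the minus strand. Its level was 1.32, 1.53 and 1.43 CPM in WT and 1.73, 1.66 and 2.41 CPM in KO, and the log2 fold change was 0.44 (SE 0.193; adjusted p = 0.622 by edgeR). Without KO library 3 the log2 fold change was 0.25. This was the largest difference among the members and rested on 346 counts in all. Cox6b2 (0.968% against 1.13%) and Ndufa4l2 (1.81% against 2.02%) also had every KO share above every WT share, with the same exact p. Cox7a1 (1.88% against 2.11%), Cox4i2 (0.324% in both), Cox7b2 (0.618% against 0.582%) and Cox8b (0.167% against 0.116%) overlapped between the groups.

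The main isoforms had smaller log2 fold changes than Cox6a2. Cox4i1 had 214, 197 and 212 CPM in the WT libraries and 225, 217 and 221 CPM in the KO libraries, with no overlap at a log2 fold change of 0.09 (SE 0.0454; adjusted p = 0.643 by edgeR). Cox6a1 (0.13), Cox8a (0.10), Cox7a2 (0.07) and Cox6b1 (0.03) had log2 fold changes above 0 and overlapping libraries, and Ndufa4 (-0.03) and Cox7b (-0.08) were below 0. In a fit with offsets for GC content, described further on, Cox4i1 was at 0.0094, Cox6a1 at 0.0084 and Cox8a at 0.012, and without WT library 2 Cox8a was at 0.013. Cox7b2 had the lowest value of the complex, -0.16, on 75 counts in all and with a standard error of 0.402, and its libraries overlapped. Over complex IV, 14 of 18 tested members were above 0, the median was 0.07, and Cox6a2 was the sole member with an unadjusted p under 0.05. With offsets for GC content the median was 0.03, and the member with such a p was Cox7c (0.15).

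The Cox8 pair also differs in the sequence around its start site, which is shown because the levels of the pair lie furthest apart. Each window runs from 250 bases before to 50 bases after the start of transcription, is taken from RefSeq on GRCm38.p6 and is written 5′ to 3′ on the strand of the gene, which is the minus strand for both. Cox8a lies at chr19:7217567-7217866 and Cox8b at chr7:140900397-140900696. Capitals mark any match, on either strand, to the motifs searched, which are given with their letters further on. In Cox8a they mark 2 matches to the GABPA motif, the first across the start of transcription and the second after it. In Cox8b they mark TATAAA, which lies after the annotated start.
Cox8a: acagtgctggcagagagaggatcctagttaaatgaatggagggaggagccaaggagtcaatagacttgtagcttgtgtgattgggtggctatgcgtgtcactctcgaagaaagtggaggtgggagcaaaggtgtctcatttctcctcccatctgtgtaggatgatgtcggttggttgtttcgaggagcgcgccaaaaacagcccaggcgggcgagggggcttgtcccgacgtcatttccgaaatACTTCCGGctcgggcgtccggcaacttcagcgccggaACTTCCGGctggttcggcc
Cox8b: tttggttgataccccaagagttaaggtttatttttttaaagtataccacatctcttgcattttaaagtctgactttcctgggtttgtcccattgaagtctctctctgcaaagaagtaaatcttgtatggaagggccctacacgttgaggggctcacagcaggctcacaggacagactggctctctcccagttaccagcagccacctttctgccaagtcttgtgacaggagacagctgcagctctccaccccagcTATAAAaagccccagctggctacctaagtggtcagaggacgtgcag

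Complex V, the ATP synthase, contained the most abundant member of all, Atp5b, the catalytic beta subunit, at 333 CPM per kb, followed within the complex by the alpha subunit Atp5a1 at 212. With all exons counted Atp5a1 ranked first in the complex and Cox8a first of all members. Atp5b had 633, 614 and 624 CPM in the WT libraries and 669, 636 and 652 CPM in the KO libraries. All KO values were above all WT values, by a log2 fold change of 0.06 (SE 0.0379; adjusted p = 0.706 by edgeR). The 5 members of the catalytic head and central stalk (Atp5a1, Atp5b, Atp5c1, Atp5d and Atp5e) summed to 1293 to 1384 CPM in WT and 1393 to 1456 CPM in KO, with 4 of 5 values above 0. The 4 tested members of the peripheral stalk, which holds the head still, summed to 293 to 312 CPM in WT and 287 to 301 CPM in KO, with 3 of 4 values below 0 (Atp5f1, Atp5h and Atp5j) and Atp5o at 0.06. Atp5o was at -0.05 without WT library 2, and Atp5f1 at 0.02 with offsets for GC content. Of the transcript Atp5o-201, 29.0% overlaps the second gene annotated as Atp5o on the same strand.

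Atp5s (ENSMUSG00000054894.6, chromosome 12 from 69724950 to 69744660, plus strand), a factor long described as coupling factor B of the synthase, was the sole member lower in KO at an unadjusted p under 0.05. It had 7.42, 8.39 and 7.81 CPM in the WT libraries and 6.50, 6.60 and 6.78 CPM in the KO libraries. The groups did not overlap, and the log2 fold change was -0.25 (SE 0.0973; adjusted p = 0.600 by edgeR). It is also the least abundant member of the complex with counts, at 4.70 CPM per kb. Of the remaining members, Atp5d, the delta subunit of the central stalk (0.16), and Atp5mpl, a small membrane subunit (0.15), had unadjusted p-values under 0.05 and no overlap between the groups.

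Subunit c, which forms the rotating ring of the synthase, is encoded by Atp5g1, Atp5g2 and Atp5g3. Their last 78 codons encode the same protein stretch, yet the bases differ at 63 of 234 positions among the 3 genes. These stretches are printed from the GENCODE M21 transcripts Atp5g1-203, Atp5g2-201 and Atp5g3-201, with the positions that differ among the genes in capitals.
Atp5g1: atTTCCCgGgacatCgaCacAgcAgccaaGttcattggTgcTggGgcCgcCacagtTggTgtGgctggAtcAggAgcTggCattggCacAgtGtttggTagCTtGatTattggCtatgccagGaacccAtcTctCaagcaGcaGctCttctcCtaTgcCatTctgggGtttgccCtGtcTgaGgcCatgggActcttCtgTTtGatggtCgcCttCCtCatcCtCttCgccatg
Atp5g2: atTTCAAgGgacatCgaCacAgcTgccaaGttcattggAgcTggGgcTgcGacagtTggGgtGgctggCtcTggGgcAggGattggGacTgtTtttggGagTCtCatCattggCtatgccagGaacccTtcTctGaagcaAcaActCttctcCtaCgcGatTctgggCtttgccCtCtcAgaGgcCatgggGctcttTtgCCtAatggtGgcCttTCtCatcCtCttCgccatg
Atp5g3: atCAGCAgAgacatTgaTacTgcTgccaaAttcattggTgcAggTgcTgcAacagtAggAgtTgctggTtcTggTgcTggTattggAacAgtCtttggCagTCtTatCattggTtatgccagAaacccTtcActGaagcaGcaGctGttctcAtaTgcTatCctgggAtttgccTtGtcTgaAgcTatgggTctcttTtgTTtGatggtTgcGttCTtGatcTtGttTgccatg
Atp5g1 and Atp5g2 are the closest pair, with 84.6% identical bases and a longest identical run of 20 bases, while Atp5g3 shares 78.6% with Atp5g1 and 77.4% with Atp5g2. Pseudogene copies are a limit: every 50-base stretch of the transcript Atp5g2-201 also occurs in annotated pseudogenes. So do 56.2% of those of Atp5g1-203, against 0% for Atp5g3-201, and the levels of Atp5g1 and Atp5g2 are therefore uncertain.

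Of the counts of the 3 genes, Atp5g3 took 45.5% ± 2.20 in WT and 44.9% ± 1.38 in KO, Atp5g1 42.1% ± 2.49 and 41.8% ± 1.85, and Atp5g2 12.4% ± 0.290 and 13.3% ± 1.23 (SD, n = 3 each). The exact permutation p-values were 0.7, 0.8 and 0.3, where 0.1 is the smallest that 3 against 3 libraries allow. Per kb of principal transcript Atp5g3 was at 96.7, Atp5g2 at 33.8 and Atp5g1 at 24.1 CPM per kb. With all exons counted the last pair changed places, at 11.8 and 13.2. The Atp5g1 level divides by a median principal transcript length of 2675.5 bases, while its transcript Atp5g1-203 has 691. Its place among the 3 genes therefore depends on the transcript taken. Atp5g2 had 18.7, 19.0 and 18.1 CPM in the WT libraries and 20.95, 19.0 and 22.9 CPM in the KO libraries, where KO library 2 fell within the WT range. Its log2 fold change of 0.17 was the highest of the complex (SE 0.0771; adjusted p = 0.622 by edgeR). With offsets for GC content it was 0.05, below Atp5mpl at 0.11 and Atp5o at 0.08. Atp5g1 and Atp5g3 were both at 0.05 with adjusted p-values of 0.883 and 0.820.

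Base composition moved with these differences. Across the 84 members the log2 fold change had a Spearman correlation of 0.57 with the GC content of the longest transcript, beside 0.39 across all genes tested and 0.44 across the protein-coding ones. These are descriptions across genes that share the same 6 libraries. In the third of members with the highest GC content, 53.4% to 63.3%, 26 of 28 values were above 0, the median was 0.12 and 9 of the 10 members higher at an unadjusted p under 0.05 were found. In the third with the lowest, 36.7% to 48.5%, 15 of 28 were above 0, the median was 0.00 and Atp5s was the single member with such a p. In a fit with offsets for the trend of each library on GC content, 2 members, Ndufb7 (0.16) and Cox7c (0.15), were higher at an unadjusted p under 0.05, where 2.21% of all genes were, and 1, Ndufb9 (-0.15), was lower, where 2.12% were. Cyc1 was then at 0.06, Ndufv1 at 0.09 and Atp5s at -0.18, all with an adjusted p of 0.993 in edgeR's quasi-likelihood test, and the median of the members was 0.04. Offsets for transcript length in place of GC content gave 12 members higher, where 4.57% of all genes were, 1 lower, where 3.41% were, and a median of 0.06.

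**Figure D4:**
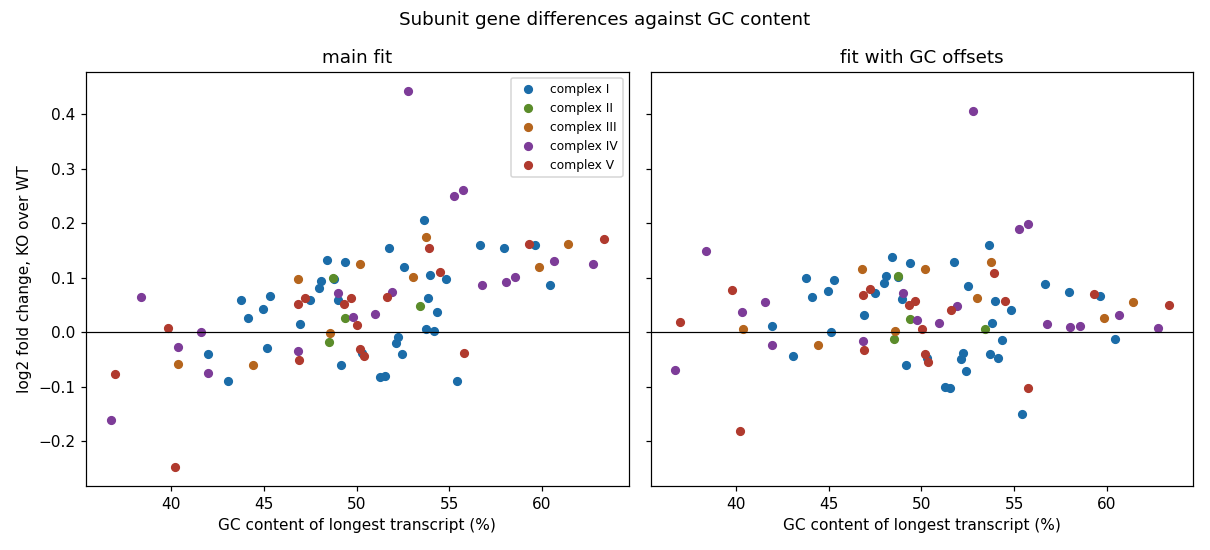
Log2 fold change of KO over WT for each tested member against the GC content of its longest transcript in percent, coloured by complex, in the fit without offsets (left) and with offsets for GC content (right). The values climb with GC content on the left, with a Spearman correlation of 0.57 over 84 genes, and do not on the right, where it is 0.00.

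WT libraries 2 and 3 stood low for many members. WT library 2 was the lowest of the 6 for 37 of the 84 members (44.0%), while it was the lowest for 16.0% of all genes tested, and WT library 3 was the lowest for 23 (27.4%), against 18.3% of all genes. KO library 1 was the highest for 23 members (27.4%), against 12.9% of all genes. Without WT library 2, 4 members were higher at an unadjusted p under 0.05 (Cyc1, Ndufv1, Ndufb7 and Ndufa11), where 3.46% of all genes were, and 0 were lower, where 2.04% were, and the median of the members was 0.04. Without KO library 1, 5 were higher, where 4.80% of all genes were, and 1 was lower, where 3.78% were. Without WT library 3, 11 were higher, where 3.66% of all genes were, and 3 were lower, where 2.66% were. Complex I had a median of 0.02 and complex V of 0.01 without WT library 2, and complex V had -0.01 without WT library 3.

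**Figure D5:**
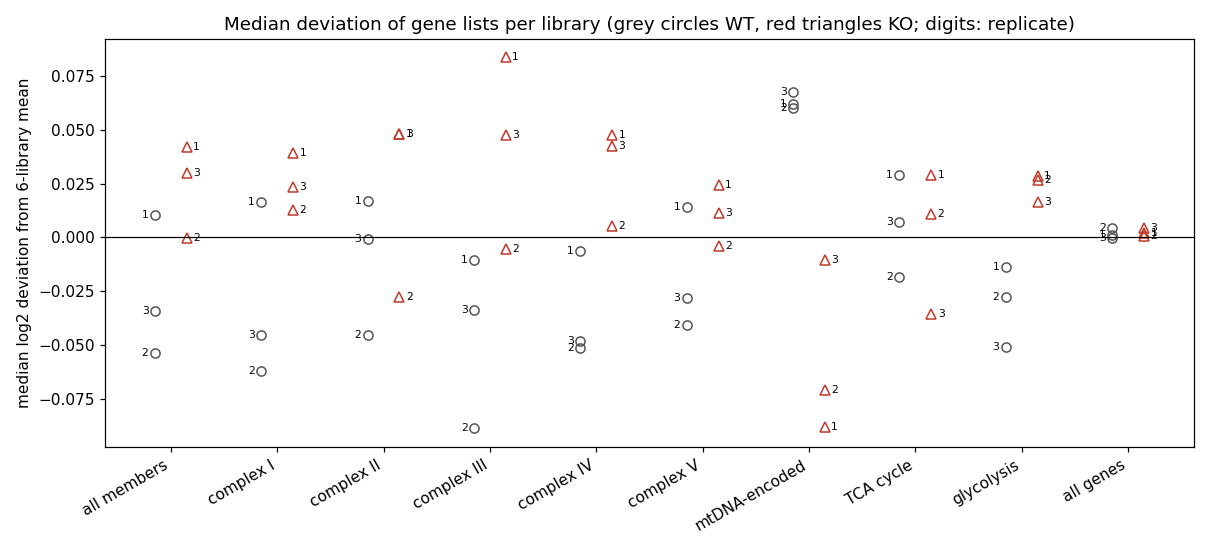
Median deviation of each gene list in each library from the mean of the 6 libraries, on the log2(CPM + 0.1) scale; grey circles are WT and red triangles KO libraries, and the digit is the replicate. In all 5 complexes the WT libraries reach lower than the KO libraries, and all genes together lie near 0. The 10 tested mitochondrially encoded subunits, including mt-Co2, mt-Co3 and mt-Atp6 with few counts, show the opposite order.

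The subunits encoded in mitochondrial DNA, which join the nuclear ones in complexes I, III, IV and V, stood on the other side. Of 13, 10 had enough counts to be tested, but those of mt-Co2, mt-Co3 and mt-Atp6 came to at most 2.01 CPM in any library, and since reads that fit several places are left out, they were not read as levels. Of the 7 others, 6 were below 0, 5 were lower in KO at an unadjusted p under 0.05, beside 3.38% of all genes, and the median was -0.10 (-0.11 over all 10). Cytochrome oxidase subunit mt-Co1 had 10188, 10419 and 10173 CPM in the WT libraries and 9463, 9289 and 10085 CPM in the KO libraries, so every KO library lay below every WT library. Its log2 fold change was -0.09 (SE 0.0371; adjusted p = 0.600 by edgeR). With the GC offsets the median of the 7 was -0.02 and 0 of them had an unadjusted p under 0.05. A difference between nuclear and mitochondrial subunits was not tested.

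Other genes of the pathway were taken as fixed lists, and none of their genes had an adjusted p under 0.05. The assembly factors had medians of 0.01 for complex I (15 tested), -0.10 for complex II (4), -0.01 for complex III (6), 0.05 for complex IV (21) and -0.02 for complex V (4). Among them 4 factors, all of complex IV, were higher in KO at an unadjusted p under 0.05, beside 4.54% of all genes: Coa6 (0.51), Taco1 (0.26), Cox10 (0.18) and Coa3 (0.14). The libraries of Coa6 and Cox10 overlapped between the groups, and Coa6 was at 0.27 without WT library 1. Cox10 takes part in making the haem of the oxidase, Coa6 serves its copper centre, Taco1 activates translation of its first subunit and Coa3 stabilises that subunit once made. With the GC offsets 1 factor of complex IV and 1 of complex II were higher at such a p. The electron carriers and respirasome factors, which include cytochrome c (Cycs, -0.02), had a median of 0.01 over 8 genes.

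Regulators of these genes, 11 transcription factors and coactivators, had a median of 0.10, with 8 above 0. Their median deviation from the mean of the 6 libraries, on the log2(CPM + 0.1) scale, was -0.03, -0.06 and -0.03 in WT and -0.03, 0.09 and 0.03 in KO, so KO library 1 lay within the WT range, and without KO library 2 the median log2 fold change was 0.04. Esrra, an orphan nuclear receptor that drives oxidative metabolism, had 31.7, 33.2 and 33.8 CPM in the WT libraries and 35.2, 37.1 and 36.3 CPM in the KO libraries (log2 fold change 0.14, SE 0.0554; adjusted p = 0.606 by edgeR). Its coactivator Ppargc1b was at 0.16, also with an unadjusted p under 0.05 and no overlap between groups. Ppargc1b was at 0.09 without KO library 2 and at 0.08 with the GC offsets. The related Ppargc1a was at -0.10 with overlapping libraries. Nrf1 was at 0.12 and Gabpa at 0.10, each with overlap. The citric acid cycle, which feeds complexes I and II, had a median of -0.01 over 13 genes, 6 above 0. Glycolysis, which makes ATP and pyruvate in the cytosol, had 0.05 over 16 genes, 13 above 0, and 0.00 with the GC offsets.

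Promoter windows of RefSeq were matched for 67 of the members, and the rest, among them Cyc1, Cox4i1, Cox4i2 and Cox6a2, were without an entry in the table. Each 300-base window was searched on both strands for an NRF1 motif (GCGC, A, any base and GCGC in a row, or the reverse complement), a GABPA motif (CCGGAAGT), a YY1 motif (AAGATGGC), an ESRRA motif (TCAAGGTCA) and TATAAA. The NRF1 motif was present in a window of 17 of the 67 members (25.4%), beside 5.19% of the 27025 genes in the table. The YY1 motif was found for 9 members (13.4%, beside 3.19% of genes), the GABPA motif for 5 (7.46%, beside 4.31%), the ESRRA motif for 2 (2.99%, beside 0.466%) and TATAAA for 7 (10.4%, beside 15.7%). Counted over all 32851 windows, some genes having more than 1, the shares were 4.60% for NRF1, 2.75% for YY1, 3.89% for GABPA, 0.423% for ESRRA and 13.6% for TATAAA. No motif searched contains another, and a match is a description of the sequence only.

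Atp5g3 and Ndufs6 show how the motifs sit together, NRF1 with ESRRA in Atp5g3 (chr2:73911277-73911576) and NRF1 with YY1 in Ndufs6 (chr13:73328433-73328732), both on the minus strand of GRCm38.p6, written as for the Cox8 pair and with the matches in capitals.
Atp5g3: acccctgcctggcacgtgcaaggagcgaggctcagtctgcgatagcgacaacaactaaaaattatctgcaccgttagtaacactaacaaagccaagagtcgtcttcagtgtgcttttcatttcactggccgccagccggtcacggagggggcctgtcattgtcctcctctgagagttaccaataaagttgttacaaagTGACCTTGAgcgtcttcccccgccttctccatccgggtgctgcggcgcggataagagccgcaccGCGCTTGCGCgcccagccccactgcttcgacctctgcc
Ndufs6: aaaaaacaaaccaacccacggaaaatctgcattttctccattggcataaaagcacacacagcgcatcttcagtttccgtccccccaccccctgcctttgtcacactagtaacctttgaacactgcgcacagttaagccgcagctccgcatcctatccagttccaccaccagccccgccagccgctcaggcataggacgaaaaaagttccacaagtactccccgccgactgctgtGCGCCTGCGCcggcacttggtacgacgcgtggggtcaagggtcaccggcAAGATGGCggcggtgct
Members with the NRF1 motif had a median log2 fold change of 0.03 over 17 genes, and the tested ones without it 0.06 over 49. For YY1 the medians were 0.01 over 9 and 0.06 over 57, and for GABPA they were 0.10 over 5 and 0.05 over 61. With the GC offsets the order for GABPA turned, to 0.02 and 0.05, while NRF1 had -0.01 and 0.06 and YY1 0.01 and 0.05. The difference between holders and non-holders was not tested.

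Markers of brain cell types were followed because the mixture of cells can move with the groups. Over all genes tested, 50.1% were above 0, 4.54% were higher at an unadjusted p under 0.05 and 3.38% were lower. All 6 choroid plexus markers were above 0, with a median of 0.24, 3 of them at an unadjusted p under 0.05, and they summed to 309 to 365 CPM in WT and 370 to 442 CPM in KO, without overlap. All 6 oligodendrocyte markers were below 0, with a median of -0.10 and sums of 4074 to 4498 CPM in WT and 3495 to 4197 CPM in KO, and 1 of the 6 was lower at an unadjusted p under 0.05. On the log2(CPM + 0.1) scale their median deviation was 0.145, 0.06 and -0.04 in WT and 0.10, -0.15 and -0.16 in KO. Their median log2 fold change was -0.05 without WT library 1 and -0.17 without KO library 1. Neuronal markers had a median of -0.03 and sums of 5092 to 5390 CPM in WT and 4853 to 5216 CPM in KO. All 5 red blood cell markers were above 0, with a median of 0.52, 1 of them (Hba-a1, an alpha globin) at an unadjusted p under 0.05. They summed to 116, 109 and 149 CPM in WT and 247, 98.3 and 181 CPM in KO, so the groups overlapped, and without KO library 1 the median was 0.15. The highest sum was that of KO library 1, where members also stood highest most often. Of 6 astrocyte markers, with a median of -0.01 and values from -0.17 to 0.45, 2 were higher and 1 was lower at such a p. Gfap, the highest of them, was at 0.08 without KO library 3. Of 6 microglial markers (median -0.03), 1 was lower (P2ry12, -0.34), and of 6 endothelial ones (median -0.02) 0 had such a p. The part of these shifts in the members' values was not tested.

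The counts of many members are uncertain for a reason of sequence. Of the 87, 39 have a principal transcript with no 50-base stretch in another annotated transcript, 18 share at least 25% of their stretches, and 7 share at least 50%, largely with processed pseudogenes. Atp5l shares 84.8% with 14 genes, of which 12 are pseudogenes, and Cox7c 53.0%. Reads that fit several places are left out of these counts, and they made up 4.61% to 5.16% of mapped reads in WT and 5.25% to 5.60% in KO. The median difference was 0.06 among tested members with no shared stretch (37) and 0.06 among those that share at least 25% (17). The subunits that the rule does not reach, Ndufb1-ps of complex I (annotated as non-coding) and Usmg5 of complex V, had values of 0.02 and -0.03.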

How the data were processed

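Long RNA was sequenced from 6 whole-brain libraries. Per the submitters' processing notes, cutadapt 1.9.1 and STAR 2.7.0f were used. The genome build and annotation are not given in the sources used here, and the gene identifiers are exactly those of GENCODE M21 (GRCm38). The authors deposited whole-number counts per gene, not normalized, in unstranded and stranded columns. Column 4, which held 94.6% to 94.8% of the stranded counts, was used. Reads that STAR placed in no gene, in several genes or at several places, or did not map, made up 57.7% to 60.2% of reads and entered neither library sizes nor tests.

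Counts were analysed in R 4.3.3 with edgeR 4.0.16 (filterByExpr, TMM, quasi-likelihood test, genotype alone, Benjamini-Hochberg over all genes tested). Standard errors are the absolute log2 fold change over the square root of the F statistic. CPM per kb used the median length of the principal transcripts, and GC content that of the longest transcript. The common biological coefficient of variation was 7.13%. Intervals and the floor of 3 counts cover counting error only. Replicate pairs differed beyond sampling noise (chi-square per degree of freedom from 4.08 to 8.69). The test was checked on simulated data with 200 of 21237 genes changed, where 26.5% of calls were false at a log2 change of 0.25 and 7.69% at 0.5. Alternatives were counts of column 2 (unstranded), other scalings (DESeq2 size factors, total counts) and filters, DESeq2 1.42.0, limma-voom (limma 3.58.1), GC or length offsets (lowess span 0.3), the replicate block, protein-coding genes alone and each library left out.

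The members and lists were chosen with earlier results of these data known. Genes were named by a rule: Trmt1l, every isoform gene, in each complex the member with the highest level per kb and those with the highest and lowest log2 fold change, and each member with an unadjusted p under 0.01. For 1 member and 1 marker gene, single values are not reported here; both stay in the fits and counts. Further genes are named with their values already known.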

Additional observations from a re-analysis of the deposited data

How the results depend on the processing

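No member had an adjusted p under 0.05 in any fit, and the lowest over all alternatives was 0.191 (Atp5d, no filter on low counts). The number of all genes called was 298 with no filter, 26 with the DESeq2 Wald test, 4 with the replicate block and 1 among protein-coding genes alone, against 2. Members higher at an unadjusted p under 0.05 numbered 2 with the GC correction (2.21% of all genes) and 2 with the replicate block and GC correction (1.93%), against 10. Members lower numbered 0 with DESeq2 (2.04%) and 0 with the replicate block and GC correction (1.87%), against 1. The cause of these changes was not tested, except that fewer genes entered the protein-coding fit.

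Same-numbered KO and WT libraries deviated together with correlations of 0.040, -0.031 and -0.058, so the numbers did not pair them. The replicate block gave 8 members higher (4.10% of all genes), 1 lower (2.75%) and a median of 0.06, and the replicate block with length correction 11 higher (4.04%).

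Leaving out 1 library at a time gave 2 to 5 genes called, 4 to 13 members higher (3.35% to 4.80% of all genes), 0 to 3 lower (2.04% to 3.78%) and a median of 0.04 to 0.07. Over all 84 tested members, 54 kept their direction in every alternative and 30 turned in at least 1, of which 29 had a log2 fold change within 0.1 of 0. Among the members named by rule and the complex medians, directions that turned were those of Ndufa4 (0.036 with the GC correction, 0.038 with the replicate block as well, and -0.058 to 0.0030 with 1 library left out), Cox7b2 (-0.42 to 0.18), Sdha (-0.047 to 0.0069), Atp5g1 (-0.021 to 0.13) and the complex V median (-0.0094 to 0.063). The share of Cox4i2 differed by 0.0035 points in the unstranded column. With a library left out, share differences in points spanned -0.0191 to 0.0213 for Cox4i2, -0.124 to 0.106 for Cox7b2, -1.57 to 0.915 for Atp5g1, -1.68 to 0.517 for Atp5g3, 0.273 to 1.5 for Atp5g2, 0.241 to 0.505 for Cox6a2, 0.127 to 0.226 for Cox6b2, 0.127 to 0.291 for Ndufa4l2, 0.106 to 0.383 for Cox7a1 and -0.0909 to -0.00966 for Cox8b. Over 28 named members, 520 of 527 alternative values kept their direction. Total counts in place of TMM moved the median of all genes to -0.01.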
